A study of Mus musculus with 30 samples.

Results

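The genes described here are 35 genes of monocytes and macrophages, taken as a list of gene symbols out of 18193 genes represented on the array. Signal of these genes was measured in hearts, vessels, kidneys and brains of male C57BL/6 mice, 8 to 10 weeks old at the start, infused with angiotensin II through osmotic pumps (1500 ng/kg/min). Angiotensin II is a peptide hormone that constricts vessels, raises blood pressure and drives inflammation of heart and vessel wall. Organs taken after 1, 3 or 7 days of infusion were set against organs of a day 0 group without the peptide. Each of the 4 times was represented by 3 heart arrays and 2 kidney arrays. Brain had 2 arrays at days 0, 3 and 7, and vessel had a single array at each time, which makes 30 arrays in 15 groups. The labels call the arrays biological replicates, but they do not say whether day 0 mice carried a pump, which vessel was taken or which organs came from the same mouse.

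Circulating monocytes leave the blood through CCR2 and its ligand CCL2 and turn into macrophages in inflamed tissue, beside resident macrophages that were seeded earlier and depend on the receptor CSF1R. The transcription factor PU.1, encoded by Spi1, drives most genes that define these cells, and in brain the resident cells are microglia. Receptors for antibody complexes, complement, fungal and bacterial sugars and modified lipoprotein let them recognise targets, and lysosomal proteases degrade what they take up. Several of the genes, among them Ptprc, Itgam, Itgb2, Cd52, Clec7a and Clec4d, are also expressed by neutrophils, and Ptprc, Cd52 and Cd53 by lymphocytes.

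The DNA sequence just before the start of these genes is shown for 6 of them, because PU.1 binds such sequences at a core of GAGGAA and because these 6 genes include members that moved apart in heart. Promoter sequence from RefSeq, on mouse assembly GRCm38.p6, was held for 24 of the 35 genes. Each line gives the 250 bases before the annotated start of the gene, 5' to 3' on the strand of the gene, and capitals mark the letters GAGGAA or its reverse complement TTCCTC. Clec4d (chr6:123261857-123262106, plus strand) and Lgals3 (chr14:47373610-47373859, plus strand) had the largest rises of the list in heart at day 1. Itgam (chr7:128062390-128062639, plus strand) rose with them, and Cd68 (chr11:69666171-69666420, minus strand) had one of the largest differences at day 3. C1qb (chr4:136886201-136886450, minus strand) and C1qc (chr4:136892915-136893164, minus strand) are chains of complement C1q that were not called in heart at day 1.
Clec4d: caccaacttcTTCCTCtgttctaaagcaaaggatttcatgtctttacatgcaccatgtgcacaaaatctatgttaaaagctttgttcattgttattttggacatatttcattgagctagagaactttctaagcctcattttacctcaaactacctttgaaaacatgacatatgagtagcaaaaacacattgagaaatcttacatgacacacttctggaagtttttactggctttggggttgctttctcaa
Lgals3: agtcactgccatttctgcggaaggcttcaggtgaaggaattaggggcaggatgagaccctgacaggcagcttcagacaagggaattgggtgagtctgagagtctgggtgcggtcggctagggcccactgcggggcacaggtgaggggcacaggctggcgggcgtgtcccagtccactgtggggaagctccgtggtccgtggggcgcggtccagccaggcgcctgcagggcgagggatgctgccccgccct
Itgam: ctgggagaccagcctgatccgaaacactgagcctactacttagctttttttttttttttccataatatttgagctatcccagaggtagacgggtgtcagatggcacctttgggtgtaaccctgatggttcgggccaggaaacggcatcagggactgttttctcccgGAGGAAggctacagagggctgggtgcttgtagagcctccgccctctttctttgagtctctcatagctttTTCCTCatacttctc
Cd68: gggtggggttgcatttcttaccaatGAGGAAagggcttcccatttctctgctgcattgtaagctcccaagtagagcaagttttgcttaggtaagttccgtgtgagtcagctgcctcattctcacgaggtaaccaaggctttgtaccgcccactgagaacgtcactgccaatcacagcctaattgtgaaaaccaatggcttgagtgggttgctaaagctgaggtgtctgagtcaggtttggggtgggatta
C1qb: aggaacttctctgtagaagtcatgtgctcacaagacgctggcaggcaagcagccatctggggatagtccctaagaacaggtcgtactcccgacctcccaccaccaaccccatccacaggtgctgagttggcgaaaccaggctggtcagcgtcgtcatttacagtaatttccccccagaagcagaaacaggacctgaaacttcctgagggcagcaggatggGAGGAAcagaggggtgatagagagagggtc
C1qc: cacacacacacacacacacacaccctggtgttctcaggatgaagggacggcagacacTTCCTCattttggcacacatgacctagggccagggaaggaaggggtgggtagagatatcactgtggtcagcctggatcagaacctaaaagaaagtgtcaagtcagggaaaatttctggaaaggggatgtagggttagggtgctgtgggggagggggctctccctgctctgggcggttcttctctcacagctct
The core GAGGAA, searched on both strands, was found before 14 of the 24 genes (58.3%), against 25.9% of 27025 genes with a promoter in the same table. The longer PU.1 sequence GAGGAAGT, which contains that core, was found before 1 of 24 (4.17%, C1qc), against 2.79% of all genes. The core GGAAGT of the wider ETS family, which overlaps GAGGAAGT, was found before 10 of 24 (41.7%), against 22.2% of all genes. Among the 6 sequences shown, Itgam held GAGGAA at 2 positions, Lgals3 at none and the others at 1. Thus the letters stood before genes that were called in heart at day 1 (Clec4d, Itgam, Cd68) and before genes that were not (C1qb, C1qc). The AP-1 sequence TGAGTCA was found only before Cd68 among the 24 (4.17%, against 5.16% of all genes), the STAT sequence TTCNNNGAA only before Fcgr1 (4.17%, against 8.13%), and the C/EBP sequence TTGCGCAA before none (0%, against 0.185%). A match of letters is a description of this stretch and was not tested as a binding site.

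Array medians lay between 35.2 and 37.8 intensity units, a linear brightness scale, over 45101 probe sets, and the number of arrays limits the precision. Each tissue carried its own markers: the summed signal of 6 cardiomyocyte genes was 68292 to 75810 in heart, that of kidney tubule genes 17544 to 24585 in kidney, that of neuron and glia genes 33360 to 39398 in brain and that of smooth muscle genes 26091 to 33683 in vessel. Some arrays also carried tissue that their label does not name. Adipoq, an adipocyte gene, read 9496 to 12769 in the 4 vessel arrays, and in kidney 2318 and 3335 at day 1 and 6176 in day 3 replicate 2, against 40.9 to 235 on the other kidney arrays. Hsd3b1, a steroid enzyme of the adrenal cortex, read 4461 in kidney day 3 replicate 2 and 2675 in kidney day 0 replicate 2, against 17.6 to 21.2 on the other kidney arrays. The vessel array of day 3 had less of the cardiomyocyte gene Myh6 (324, against 4366 at day 0) and more of the neuronal gene Snap25 (658, against 6.73 at day 0). The part of these differences in the results on macrophage genes was not tested.

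Testing was limited to genes brighter than the 40th percentile of an array on enough arrays of the tissue. Heart left 34 of the 35 genes to test, kidney and brain 33 each, and vessel 35. Emr4, named Adgre4 in current annotation and a relative of F4/80, failed in heart, kidney and brain with 6.17 to 22.2 intensity units, Itgam in kidney and Clec4n in brain. Changes are differences of log2(intensity + 16) and understate changes of weak genes. Tests were made with limma over all genes of a tissue, and "called" means a Benjamini-Hochberg adjusted p under 0.05.

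**Figure D1:**
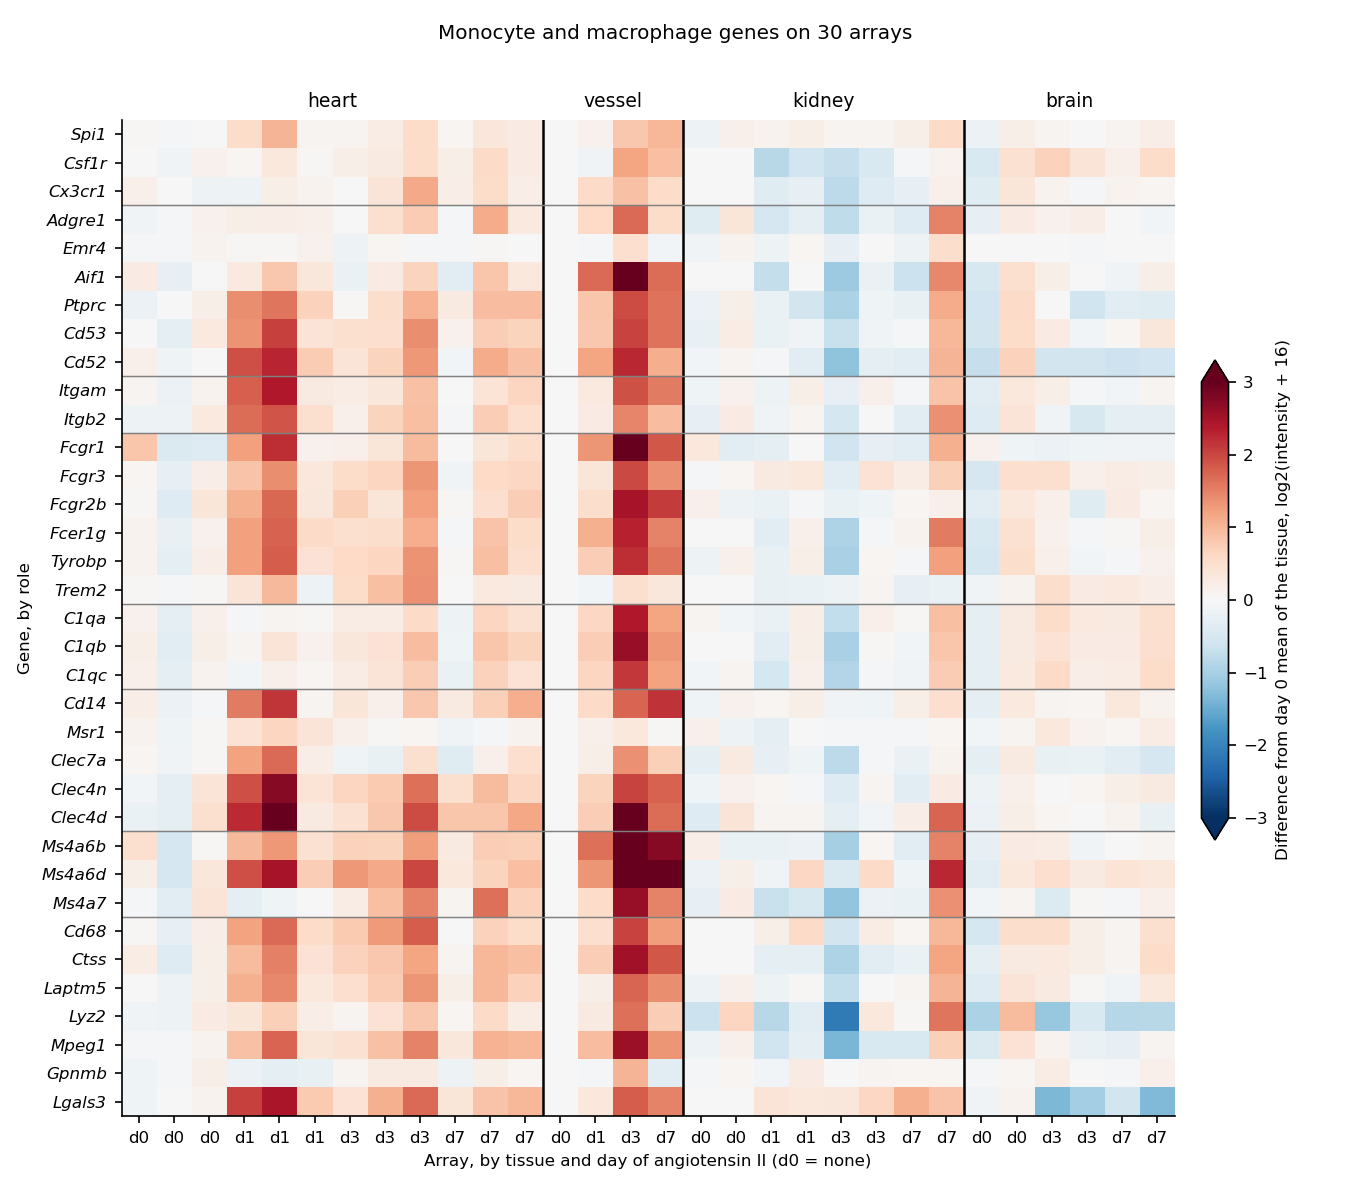
Difference of each of the 35 genes (rows, ordered by role, grey lines between roles) from the mean of its tissue at day 0, in log2(intensity + 16) with colours ending at 3 in either direction, on each of the 30 arrays (columns). Higher values stand in heart at all 3 times except for replicate 1 of day 7, in vessel at all 3 times and most at day 3, and in replicate 2 of the day 7 kidneys.

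After 1 day of angiotensin II, 18 of the 34 genes tested in heart rose and none fell, where 4.86% of all 14040 tested genes were called higher and 8.57% lower. The median change of the 34 genes was 0.98 on the log2 scale, beside -0.02 over all tested genes, and 32 of the 34 changes were positive. An unadjusted p under 0.05 was found for 23 genes, against 28.4% of all tested genes. All 3 hearts of day 1 lay above all 3 hearts of day 0 in 20 of the genes, against 11.4% of all tested genes, and below them in 1, Gpnmb, against 18.4%. The largest rises were those of the C-type lectin Clec4d, the galectin Lgals3, the membrane protein Ms4a6d and the C-type lectin Clec4n, each above 3-fold. Csf1r, Cx3cr1, Adgre1 and the 3 chains of C1q had changes between 0.02 and 0.21 and were not called. In whole tissue, more cells of a type and more RNA per cell cannot be told apart.

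The count of 18 rested on single arrays: it was 4, 1 and 10 without day 0 replicates 1, 2 and 3, and 1, 2 and 24 without day 1 replicates 1, 2 and 3. None of the 18 genes kept its call in all 6 of these fits, with Msr1 called in 5 and Lgals3 in 4, and the count was 9 with no filter, 8 with trended and robust variances and 7 with day 0 and day 1 alone in the fit.

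The 3 hearts of day 1 stood apart from each other. Their median difference from the day 0 mean over the 34 genes was 1.02 in replicate 1, 1.55 in replicate 2 and 0.33 in replicate 3. Replicate 2 had the highest value of the 3 in 32 of the 34 genes and replicate 3 the lowest in 27, and 20 genes of replicate 3 lay above all day 0 hearts, against 22.5% of all tested genes. Markers of inflammatory monocytes (7 genes) summed to 6717, 11061 and 2513 in the same 3 hearts, against 1055 to 1473 at day 0. Markers of neutrophils (8 genes) summed to 4909, 6880 and 1559, against 336 to 1373 at day 0, and none of either list was listed at 0. Of the monocyte list 6 of 7 genes rose at day 1, led by Chil3 (5.08 ± 0.53), and of the neutrophil list 3 of 8, led by S100a8 (3.40 ± 0.80). Markers of T and NK cells also included 3 of 8 tested genes that rose, and their sum was 618 to 988 against 402 to 458 at day 0. The part of these 3 cell types in the rises of the macrophage genes was not tested. Of the markers of resident macrophages, 1 of 8 rose (Mrc1, the mannose receptor) and their sum was 4757 to 5794 at day 1 against 3809 to 5229 at day 0.

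**Figure D2:**
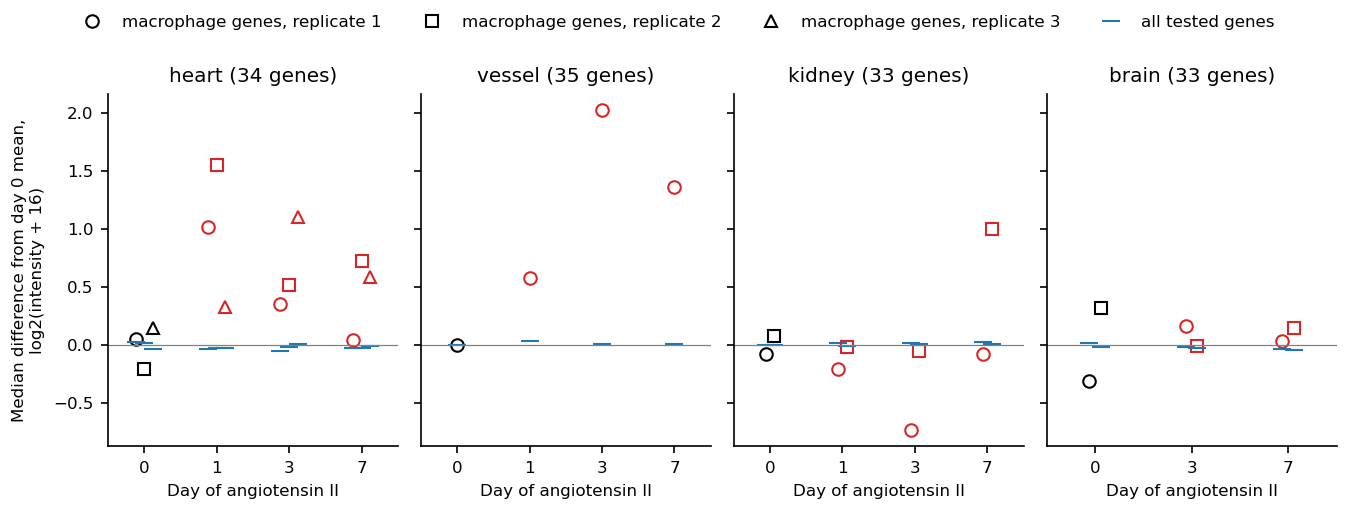
Median difference of the macrophage genes (open symbols, 1 per array, shape by replicate number) and of all tested genes (blue dashes) from the day 0 mean of the tissue, in log2(intensity + 16), by day. The 3 hearts of day 1 spread between 0.33 and 1.55, the vessel array of day 3 stands at 2.02, and day 7 kidneys stand apart from each other at -0.08 and 0.995, while all tested genes stay near 0.

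None of the 3 genes at the head of the lineage was called in heart at day 1. Spi1, which encodes PU.1, read 126, 179 and 87.2 in day 1 hearts, against 83.0, 79.1 and 80.3 in day 0 hearts. Its groups did not overlap, but the change of 0.55 ± 0.19 (SE, n = 3 against 3) missed the threshold (limma, adjusted p = 0.071). Csf1r, the receptor for CSF1 and IL-34, read 2553, 3055 and 2511 in day 1 hearts, against 2404, 2258 and 2684 in day 0 hearts, and the groups overlapped. Cx3cr1, the fractalkine receptor of resident macrophages, microglia and patrolling monocytes, changed by 0.04 ± 0.22.

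Of the surface markers, Ptprc, Cd53 and Cd52 rose at day 1, and Adgre1 and Aif1 were not called. Ptprc, the phosphatase CD45 of all leukocytes, read 715, 828 and 433 in day 1 hearts, against 230, 263 and 301 in day 0 hearts. All 3 treated hearts were above all untreated ones, and the change was 1.22 ± 0.27 (2.34-fold; limma, adjusted p = 0.013). Cd52, a small glycoprotein of leukocytes, rose by 1.66 ± 0.37 (adjusted p = 0.014) and Cd53, a tetraspanin, by 1.27 ± 0.35 (adjusted p = 0.033), with no overlap for either. Adgre1, which encodes F4/80, the standard marker of mature mouse macrophages, read 200, 202 and 197 in day 1 hearts, against 162, 169 and 194 in day 0 hearts. The 3 treated values were close together and only just above the highest untreated one, for a change of 0.18 ± 0.25 (adjusted p = 0.71). Aif1, the actin-binding protein Iba1, changed by 0.48 ± 0.28. A second, dim probe set of Ptprc changed by 0.09 and that of Cd53 by 0.02.

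Both integrin chains rose. Itgam and Itgb2 together form complement receptor 3 of monocytes, macrophages and neutrophils. Itgam was 112, 177 and 28.5 in day 1 hearts, against 22.6, 16.3 and 23.7 in day 0 hearts, and Itgb2 519, 603 and 219 against 136, 135 and 191. Neither overlapped, although replicate 3 was close to day 0 in both. All 3 day 0 values of Itgam lay below the 40th percentile of their arrays (25.4, 25.3 and 26.4), so Itgam entered the test through treated hearts only. The changes were 1.49 ± 0.40 for Itgam (adjusted p = 0.028) and 1.34 ± 0.32 for Itgb2 (adjusted p = 0.018).

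Among the Fc receptors and their adaptors, Fcgr2b, Fcer1g and Tyrobp rose, and Fcgr1, Fcgr3 and Trem2 were not called. Fcer1g, the signalling chain shared by activating Fc receptors, rose by 1.19 ± 0.29 (adjusted p = 0.018), and Tyrobp, the adaptor DAP12 that TREM2 needs, by 1.16 ± 0.32 (adjusted p = 0.032). Fcgr2b, the inhibitory receptor for IgG, rose by 1.04 ± 0.32 (adjusted p = 0.048), while its 4 other probe sets changed by -0.06 to 0.88. Fcgr1, the high-affinity receptor for IgG, read 220, 455 and 94.6 in day 1 hearts, against 163, 58.9 and 61.6 in day 0 hearts. Day 0 replicate 1 was above the lowest treated heart, and the change of 1.19 ± 0.44 was not called (adjusted p = 0.096). Fcgr3, the low-affinity activating receptor, changed by 0.86 ± 0.28 without overlap (adjusted p = 0.058), and Trem2, a lipid-sensing receptor of phagocytes, by 0.41 ± 0.24, with a second probe set at -0.16.

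The 3 genes for the chains of C1q, which starts the classical complement pathway and is made mostly by tissue macrophages, were not called. C1qa read 1435, 1592 and 1544 in day 1 hearts, against 1651, 1232 and 1673 in day 0 hearts, and the treated values lay within the untreated range. The changes were 0.02 ± 0.18 for C1qa, 0.21 ± 0.23 for C1qb and 0.04 ± 0.20 for C1qc.

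Of the 5 receptors for microbial and modified ligands, 4 rose. Clec4d, a C-type lectin that pairs with Mincle on myeloid cells, read 509, 876 and 119 in day 1 hearts, against 81.3, 75.5 and 139 in day 0 hearts. Replicate 3 of day 1 lay inside the untreated range, and the rise of 1.84 ± 0.54 (3.58-fold; limma, adjusted p = 0.042) was carried by replicates 1 and 2. Clec4n, which encodes Dectin-2, a receptor for fungal mannans, read 424, 747 and 137 in day 1 hearts, against 93.7, 77.6 and 134 in day 0 hearts. Its groups were parted by only a few units and it rose by 1.68 ± 0.45 (3.21-fold; adjusted p = 0.028). Clec7a, the beta-glucan receptor Dectin-1, rose by 1.03 ± 0.32 (adjusted p = 0.048). Msr1, a scavenger receptor for modified lipoprotein, read 169, 199 and 161 in day 1 hearts, against 130, 109 and 123 in day 0 hearts. Its rise was small, 0.49 ± 0.10, but the 3 treated hearts stood close together (adjusted p = 0.010), and its 3 other probe sets changed by 0.30 to 1.48. Cd14, the co-receptor for lipopolysaccharide, changed by 1.26 ± 0.40 with overlap and was not called (adjusted p = 0.053).

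In the MS4A family of membrane proteins, Ms4a6d and Ms4a6b rose and Ms4a7 was not called. Ms4a6d read 776, 1130 and 330 in day 1 hearts, against 218, 130 and 247 in day 0 hearts. The groups did not overlap and the rise was 1.71 ± 0.37 (3.27-fold; limma, adjusted p = 0.012), while its other probe sets changed by -0.01 to 1.58. Ms4a6b rose by 0.91 ± 0.26 (adjusted p = 0.038) with overlap. Ms4a7 read 224, 255 and 278 in day 1 hearts, against 268, 217 and 371 in day 0 hearts, and its change was -0.14 ± 0.36. Whether probes of these related genes also bind the other family members' RNA was not tested.

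Of the 7 lysosomal and secreted products, Lgals3, Cd68, Ctss and Laptm5 rose. Lgals3, the sugar-binding protein galectin-3, read 2133, 2808 and 881 in day 1 hearts, against 462, 504 and 547 in day 0 hearts. All treated hearts were well above all untreated ones and the rise was 1.76 ± 0.37 (3.39-fold; limma, adjusted p = 0.011). Cd68, a lysosomal membrane protein of phagocytes, read 435, 624 and 271 in day 1 hearts, against 186, 148 and 210 in day 0 hearts. It rose by 1.16 ± 0.29 without overlap (adjusted p = 0.023). Ctss, a cysteine protease that processes antigen, rose by 0.96 ± 0.28 (adjusted p = 0.041) and Laptm5, a lysosomal protein of blood cells, by 0.94 ± 0.28 (adjusted p = 0.042). Mpeg1, the pore-forming protein perforin-2, changed by 0.99 ± 0.32 (adjusted p = 0.058) and Lyz2, macrophage lysozyme, by 0.42 ± 0.20. Gpnmb, a glycoprotein of lipid-loaded macrophages, changed by -0.23 ± 0.11, with all treated hearts below all untreated ones.

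**Figure D3:**
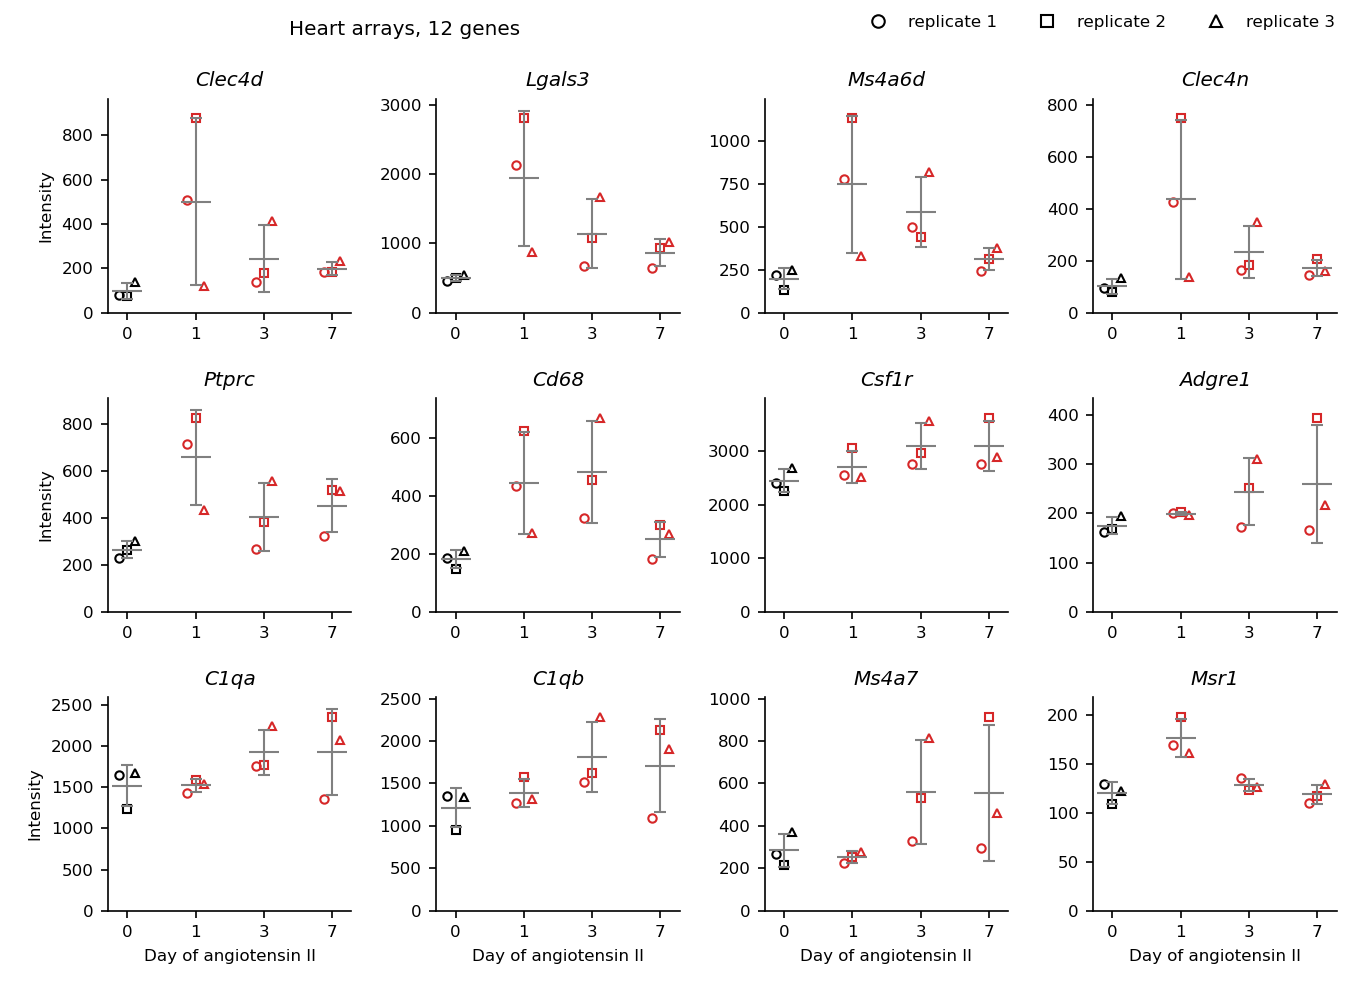
Intensity of 12 genes in the 12 hearts (open symbols, shape by replicate number, black for day 0 and red for treated), by day of angiotensin II, with the mean (dash) and SD (bar) of each group of 3. Clec4d, Lgals3, Clec4n and Ptprc have their highest mean at day 1, Cd68 and C1qb at day 3, and Msr1 stands highest at day 1.

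At day 3 none of the 34 genes was called in heart (limma), where 0.0712% of all tested genes were called higher and 0.0142% lower. This comparison shares the 3 day 0 hearts with that of day 1, as does that of day 7. All 34 changes were positive, with a median of 0.63 beside -0.02 over all tested genes, and 20 genes had an unadjusted p under 0.05, against 12% of all tested genes. All 3 hearts of day 3 lay above all day 0 hearts in 21 genes, against 7.4% of all tested genes. Replicate 3 had the highest value of the 3 in 33 genes and a median difference of 1.11, against 0.35 and 0.52 in replicates 1 and 2. Its inflammatory monocyte markers summed to 5144, against 2032 and 3201 in replicates 1 and 2. Without day 3 replicate 1 the count of calls was 2, and it was 1 in the joint fit of 3 tissues.

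Cd68 and Ms4a6d had the smallest p at day 3. Cd68 read 322, 455 and 670 in day 3 hearts, against 186, 148 and 210 in day 0 hearts. There was no overlap, and the change was 1.29 ± 0.29 (2.44-fold; limma, adjusted p = 0.13). Ms4a6d read 499, 440 and 816 in day 3 hearts, against 218, 130 and 247 in day 0 hearts, also without overlap, for a change of 1.48 ± 0.37 (adjusted p = 0.16). Trem2 was 124, 162 and 229 in day 3 hearts, against 82.1, 74.8 and 81.1 in day 0 hearts. All its treated values exceeded the untreated ones, with a change of 0.94 ± 0.24 (adjusted p = 0.16), but its second probe set changed by -0.26. Csf1r read 2755, 2968 and 3570 in day 3 hearts, above every day 0 heart, for a change of 0.33 ± 0.13 (adjusted p = 0.34). Adgre1 was 173, 251 and 310 and overlapped with day 0, and Ptprc was 269, 384 and 556 and also overlapped. The C1q genes had changes of 0.34 to 0.57, with all day 3 hearts above all day 0 hearts for each of the 3.

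At day 7 again none was called (limma), with 0.0427% of all tested genes called higher and 0.00712% lower. Of the 34 changes 33 were positive, with a median of 0.43 beside -0.02, and 7 genes had an unadjusted p under 0.05, against 8.88% of all tested genes. Groups did not overlap in 10 genes, all higher, against 9.28% of all tested genes. Replicate 1 of day 7 had the lowest value of the 3 in 33 genes, with a median difference of 0.04, against 0.73 and 0.59 in replicates 2 and 3. Ptprc had the smallest p and read 322, 518 and 516 in day 7 hearts, above every day 0 heart, for a change of 0.71 ± 0.27 (adjusted p = 0.48). Mpeg1 was next, at 413, 690 and 660 in day 7 hearts against 318, 309 and 348 in day 0 hearts, for 0.79 ± 0.32 (adjusted p = 0.52). Cd68 was 182, 300 and 268, which overlapped with day 0, and Csf1r was 2763, 3630 and 2885, which did not. Adgre1 was 166, 395 and 218, the 395 of replicate 2 being its highest value in any heart. With only day 0 and day 7 in the fit the count of calls was 3.

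**Figure D4:**
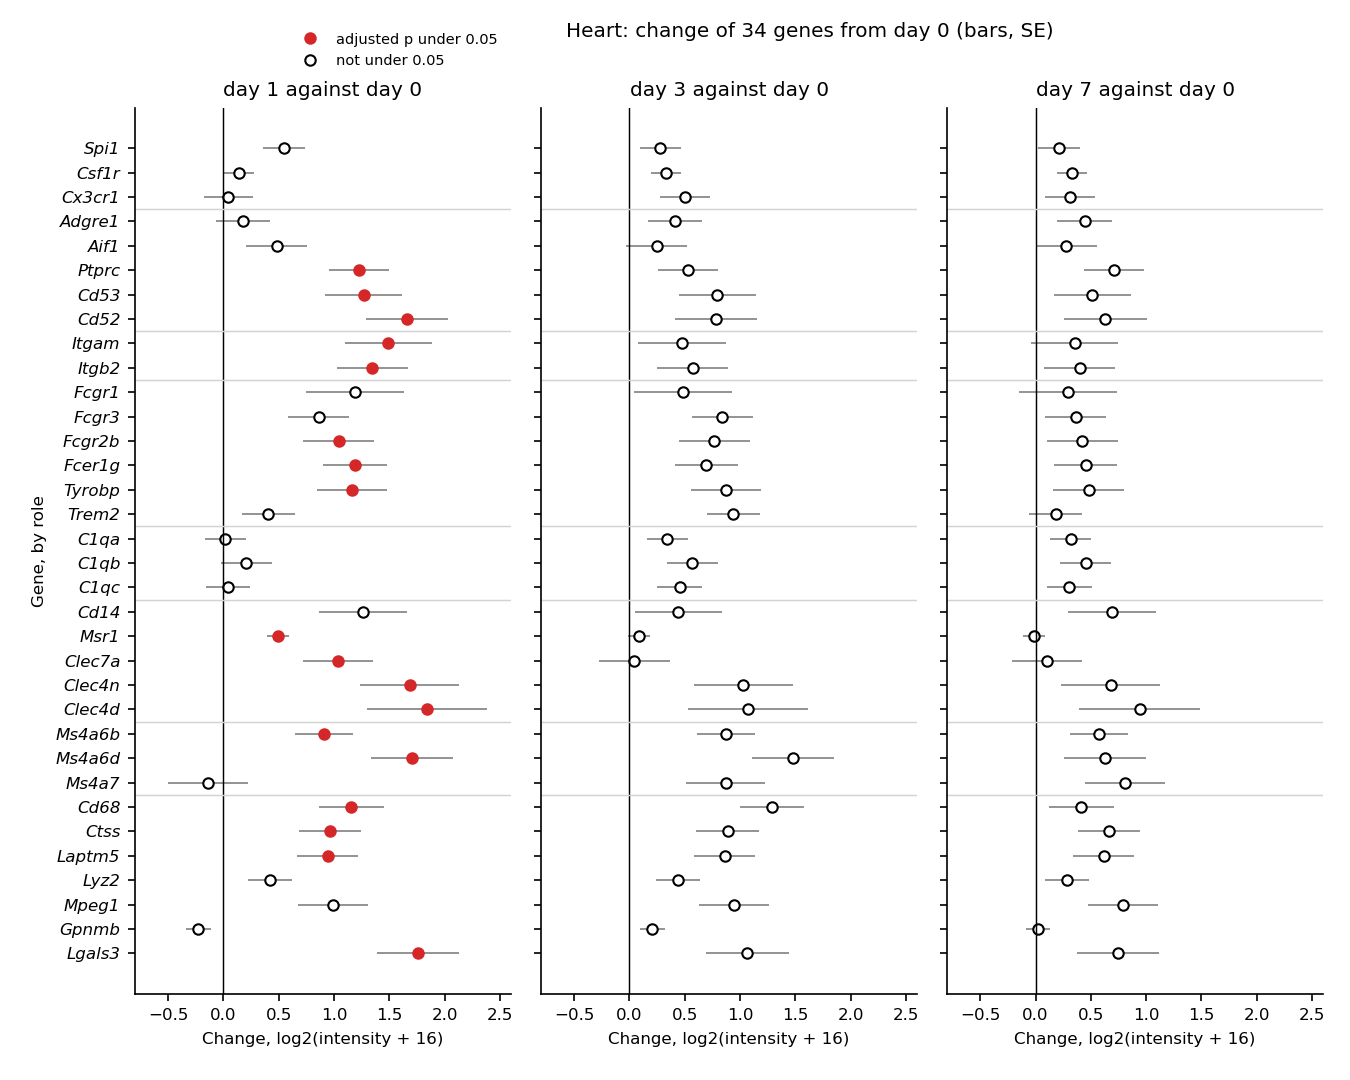
Change of the 34 genes tested in heart from day 0 (points, with SE as bars), in log2(intensity + 16), at days 1, 3 and 7, with rows ordered by role and the day 0 hearts shared by all panels. Filled red points have an adjusted p under 0.05 (18 at day 1 and none at days 3 and 7), and all 34 points of day 3 lie right of 0.

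The day with the highest mean in heart was not the same for all genes, but that day was not tested. Some means lay close: Csf1r averaged 3097 intensity units at day 3 and 3093 at day 7, and Lyz2 5121 at day 3 and 5010 at day 1. The highest group mean on the log2 scale was at day 1 for 23 of the 34 genes, at day 3 for 10, at day 7 for 1 (Adgre1) and at day 0 for none. Among all tested genes these shares were 29.4% for day 1, 20.3% for day 3, 18.7% for day 7 and 31.6% for day 0. The 10 genes highest at day 3 were Csf1r, Cx3cr1, Trem2, C1qa, C1qb, C1qc, Ms4a7, Cd68, Lyz2 and Gpnmb. By the F test over all 3 times, Msr1 (adjusted p = 0.025), Ms4a6d (adjusted p = 0.038) and Cd68 (adjusted p = 0.040) changed, 3 of 34 genes beside 6.55% of all tested genes.

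Between day 3 and day 1, which do not involve the day 0 hearts, Gpnmb rose and Msr1 fell, where 2.83% and 1.47% of all tested genes did so. Gpnmb read 67.6, 78.5 and 79.7 at day 3, against 53.3, 48.9 and 51.9 at day 1, a change of 0.44 ± 0.11 (limma, adjusted p = 0.046). Msr1 read 135, 124 and 127 at day 3, against 169, 199 and 161 at day 1, a change of -0.41 ± 0.10 (adjusted p = 0.042). Neither overlapped, and 9 genes had an unadjusted p under 0.05, against 20.1% of all tested genes. Ms4a7, at 327, 530 and 815 at day 3 against 224, 255 and 278 at day 1, did not overlap either, but its change of 1.01 ± 0.36 was not called (adjusted p = 0.13). Both calls were lost without day 1 replicate 1 or 2 and without day 3 replicate 2 or 3, and without day 1 replicate 3 the count was 12. Between day 7 and day 1 only Msr1 was called, at 110, 118 and 130 against 169, 199 and 161, a change of -0.51 ± 0.10 (adjusted p = 0.020), beside 2.12% of all tested genes called lower and 2.8% higher. An unadjusted p under 0.05 was found for 12 genes, against 21.9%. That call was lost without day 1 replicate 1 or 2 and without day 7 replicate 1 or 2, and the count was 17 without day 1 replicate 3.

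Across the 12 hearts the genes differed in how closely they followed the rest of the list. Pearson's r of each gene with the median of the other genes was 0.99 for Cd53, 0.99 for Tyrobp and 0.98 for Fcer1g. It was lowest for Gpnmb (-0.05), Ms4a7 (0.25), Cx3cr1 (0.36), C1qa (0.41), C1qc (0.46) and Adgre1 (0.48). These values describe 12 arrays that share day groups and common scaling, and a few arrays, among them day 1 replicate 2, lie at one end of all of them.

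In vessel, with 1 array a day and no test, the genes were at least 2-fold higher (1 or more on the log2 scale) than at day 0 in 6 of 35 at day 1, 30 at day 3 and 24 at day 7. Among all genes 0.651%, 4.78% and 4.13% were that much higher at the 3 days. The median difference of the 35 genes was 0.57 at day 1, 2.02 at day 3 and 1.36 at day 7, against 0.04, 0.01 and 0.01 over all genes. All 35 were above day 0 at day 3, against 51.0% of all genes. For Emr4 this followed from the filter, which it passed in vessel only through the day 3 array (25.4, against a 40th percentile of 24.4). Clec4n also lay below that percentile on the day 0 array (22.7, against 25.4) and passed through treated arrays only. It is counted among the genes at least 2-fold higher at day 3 (2.02) and day 7 (1.76). With single arrays these differences have no replicate check, and the vessel arrays differ in the other tissue they carry, as given above.

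The 4 largest differences at day 1 were those of Aif1, Ms4a6b, Ms4a6d and Fcgr1. Aif1 read 42.0 at day 0, 171 at day 1, 500 at day 3 and 170 at day 7. Ms4a6b read 136, 466, 1474 and 990 at days 0, 1, 3 and 7, and Ms4a6d 82.2, 229, 1002 and 861. Ms4a6d thus had the largest difference of the list at day 3, 3.37 (10.4-fold), and at day 7, 3.16 (8.94-fold). Fcgr1 read 28.6, 94.9, 343 and 146 over the same days, a difference of 3.01 at day 3. Fcgr2b, among the largest at day 7, read 226, 335, 1322 and 1021. Cd14 and Spi1 alone had their highest value at day 7: Cd14 read 87.6, 138, 331 and 447, and Spi1 66.8, 74.7, 128 and 150.

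The 3 C1q genes, not called in heart at day 1, were 2.13 to 2.61 higher in vessel at day 3. C1qb read 417 at day 0, 703 at day 1, 2624 at day 3 and 1052 at day 7. Cd68 read 95.6, 143, 440 and 250 at the same times, Csf1r 1772, 1645, 4014 and 3329, Adgre1 125, 198, 438 and 190, and Ptprc 270, 493, 1095 and 864. All 4 were highest at day 3 and still above day 0 at day 7. The 5 genes under 2-fold at day 3 were Spi1 (0.80), Cx3cr1 (0.89), Emr4 (0.51), Trem2 (0.48) and Msr1 (0.31). Markers of inflammatory monocytes summed to 7598, 14917, 25547 and 28447 at days 0, 1, 3 and 7. Much of this sum was Hp (3493, 10566, 9923 and 14873) and Fn1 (2698, 1666, 6938 and 5891), while Ccr2 read 85.4, 183, 611 and 633 and Chil3 102, 545, 755 and 791 over the same days, and Plac8 was lower at day 7 (1247) than at day 3 (3586). Markers of resident macrophages summed to 3605, 3868, 7443 and 9239, and those of B cells to 1609, 1014, 5254 and 2534. Neutrophil markers summed to 672, 2272, 1602 and 1555, and those of T and NK cells to 461, 662, 662 and 500. Their part in the result was not tested.

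In kidney no member was called at any day (limma). Among all 14214 tested genes 0.26% were called higher and 0.239% lower at day 1, and 0% at days 3 and 7. An unadjusted p under 0.05 was found for 2, 3 and 3 of the 33 genes at days 1, 3 and 7, against 16.3%, 8.46% and 6.68% of all tested genes. The median change of the 33 genes was -0.14 at day 1, -0.42 at day 3 and 0.44 at day 7. Single arrays moved these medians: kidney day 3 replicate 1 stood at -0.74 and replicate 2 at -0.05, and day 7 replicate 1 at -0.08 and replicate 2 at 0.995. In day 7 replicate 2, 28 of 33 genes lay above both day 0 kidneys, against 34.9% of all tested genes, and in day 3 replicate 1, 27 lay below both, against 30.2%.

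Lgals3 had the smallest p of the genes in kidney at day 7. It read 880 and 892 at day 0, 1166 and 1098 at day 1, 1123 and 1365 at day 3 and 1859 and 1610 at day 7. All treated kidneys were above both day 0 kidneys, with the highest pair at day 7 (0.95 ± 0.12, n = 2 against 2; limma, adjusted p = 0.60 over all genes, unadjusted p = 7.3e-05). Csf1r read 1679 and 1730 at day 0, 950 and 1130 at day 1, 1044 and 1243 at day 3 and 1633 and 1845 at day 7. It was below both day 0 kidneys at day 1 (-0.71 ± 0.13, adjusted p = 0.067) and day 3 (-0.57 ± 0.13, adjusted p = 0.41) and overlapped with them at day 7. The kidneys of day 1 and one of day 3 were those with adipocyte signal, and the adipocyte markers' part in the Csf1r values was not tested. With trended and robust variances Csf1r was called at day 1 (adjusted p = 0.040).

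Cd68, Adgre1 and Ptprc were high at day 7 in replicate 2. Cd68 read 51.0 and 112 at day 7, against 48.3 and 47.5 at day 0, a change of 0.53 ± 0.34. Adgre1 read 72.1 and 308, against 73.8 and 131 at day 0, and Ptprc 212 and 561, against 220 and 288. Replicate 1 was near the untreated kidneys for all 3. Inflammatory monocyte markers summed to 1518 and 2257 in the same kidneys, against 1472 and 1234 at day 0. The sum was higher, 7948, in day 1 replicate 2, where Hp, the gene of haptoglobin, alone gave 6336 and Ccr2 was 56.7, against 48.8 and 84.2 at day 0. At day 3 Cd68, Adgre1 and Ptprc had changes of -0.16, -0.49 and -0.55, with adjusted p of 0.94, 0.86 and 0.78. Spi1, with the second smallest p at day 7, read 49.8 and 71.0, against 36.4 and 48.4 at day 0 (0.38 ± 0.15, adjusted p = 0.75).

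A difference of the response between heart and kidney was tested in a joint fit of 26 arrays. Genes that passed the filter in either tissue were included, so Itgam, which failed in kidney, entered through treated hearts only. At day 1, 1 of 34 genes, Msr1, responded more in heart (0.64 ± 0.16; limma, adjusted p = 0.039), where 0.958% of all genes were called higher in heart and 2.51% lower. An unadjusted p under 0.05 was found for 16 genes, against 18.5% of all genes, and 33 of the 34 differences were positive, with a median of 1.12. Its own change was 0.49 in heart and -0.14 in kidney, where its 3 other probe sets went the other way (0.07 to 0.28), and with the mean of its probe sets the call was lost. The call was lost in 7 of 10 fits that left out an array, among them those without any 1 of the 3 day 0 hearts, and the count of genes called was 15 without heart day 1 replicate 3. At day 3 none was called (0.034% of all genes higher), although 14 had an unadjusted p under 0.05, against 8.57% of all genes, and all 34 differences were positive. Mpeg1 had the smallest p at day 3 (1.86 ± 0.56, adjusted p = 0.32), followed by Csf1r (0.91 ± 0.29, adjusted p = 0.33). At day 7 none was called (0.0136% higher) and none had an unadjusted p under 0.05, against 4.63% of all genes, with Trem2 (0.39 ± 0.33) and Clec4n (0.72 ± 0.61) nearest.

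In brain no member was called at day 3 or day 7 (limma), nor was any other gene (0% of 14109). An unadjusted p under 0.05 was found for 2 and 1 of 33 genes at the 2 days, against 7.38% and 7.13% of all tested genes, and the median change was 0.06 and 0.08. The day 0 brains differed from each other: replicate 2 was higher than replicate 1 in 32 of 33 genes, by a median of 0.63. Replicate 2 also had more of the neutrophil genes S100a8 (3658, against 384) and Ngp (1175, against 119), whose part was not tested. Lgals3 had the smallest p at both days, at 30.8 and 42.3 at day 3 and 64.6 and 31.2 at day 7, against 93.5 and 112 at day 0. All 4 treated brains were below both untreated ones (-1.18 ± 0.28 at day 3, adjusted p = 0.66, and -0.94 ± 0.28 at day 7, adjusted p = 0.67; n = 2 against 2).

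Cd68, Csf1r, Adgre1 and Ptprc had day 0 brains that lay far apart. Cd68 read 91.5 and 67.6 at day 3 and 62.6 and 87.4 at day 7, against 36.0 and 90.3 at day 0. Csf1r read 2668 and 2142, then 1821 and 2404, against 1186 and 2277. Adgre1 read 50.2 and 54.2, then 45.4 and 41.4, against 35.4 and 56.1, and Ptprc 85.8 and 51.3, then 65.6 and 63.5, against 52.6 and 136. All 4 overlapped with day 0 at both days. Trem2 had the second smallest p at day 3 (114 and 91.3, against 68.5 and 81.6; 0.38 ± 0.15, adjusted p = 0.66), and Clec7a at day 7 (37.8 and 31, against 39.5 and 64; -0.41 ± 0.20, adjusted p = 0.67).

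Before treatment the genes differed between organs. The mean at day 0 was highest in heart for 23 of the 35 genes. Some ranks parted by little: Cd52 averaged 264 in both kidney and heart, Ptprc 270 in vessel and 265 in heart, and Mpeg1 337 in kidney and 325 in heart. Emr4 lay below the 40th percentile on the day 0 vessel array too (12.96, against 25.4), and its order carries no information. The untreated organs were compared in the joint fit of 26 arrays. Brain against heart, 26 of 34 genes were lower and 1 was higher (limma), where 37.7% of all genes were called lower and 35.1% higher. Of these 27 calls, 17 held in all 5 fits that left out a day 0 brain or heart. Csf1r, Cd53, Cd52, Itgb2 and Tyrobp were among those lost without brain day 0 replicate 1. Clec4n, called lower in brain in all 5 fits, had failed the filter in brain and entered this comparison through heart only. Its day 0 brains read 15.4 and 23.2, below the 40th percentile of their arrays. The one gene higher in brain was Cx3cr1, at 135 and 234 in untreated brains against 99.6, 87.3 and 77.2 in untreated hearts (0.91 ± 0.25, adjusted p = 0.0031). The largest deficits in brain were Lyz2 (-3.26 ± 0.59), Fcgr2b (-2.67 ± 0.33), Ms4a6b (-2.53 ± 0.41) and Ms4a7 (-2.52 ± 0.45), all with no overlap. P2ry12, a receptor that marks microglia, read 70.8 to 123 in all brains and at most 28.4 on any other array. The summed signal of the 8 microglia markers, P2ry12 among them, did not set brain apart. It was 467 to 775 in brain, 427 to 1259 in heart, 624 to 853 in kidney and 559 to 1160 in vessel, over all days.

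Brain against kidney, 1 gene was higher, again Cx3cr1 (0.83 ± 0.27), and 9 were lower, where 32.3% and 33.7% of all genes were called so. Lgals3 (-2.93 ± 0.41), Fcgr2b (-2.85 ± 0.36), Ms4a7 (-1.45 ± 0.49) and Ptprc (-1.39 ± 0.44) led them. The count of 10 was 5 without brain day 0 replicate 1, 5 without kidney day 0 replicate 2 and 6 with 64 added before the log. Heart against kidney, 16 genes were higher and none lower, where 28.6% and 27.2% of all genes were called so. Lyz2 read 3421, 3330 and 4405 in untreated hearts, against 399 and 991 in untreated kidneys (2.52 ± 0.59, 5.73-fold). Fcgr3 (2.24 ± 0.33), C1qa (1.96 ± 0.27) and Ms4a6d (1.94 ± 0.54) followed, all without overlap. The count of 16 was 10 without kidney day 0 replicate 1 and 27 with only these groups in the fit.

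**Figure D5:**
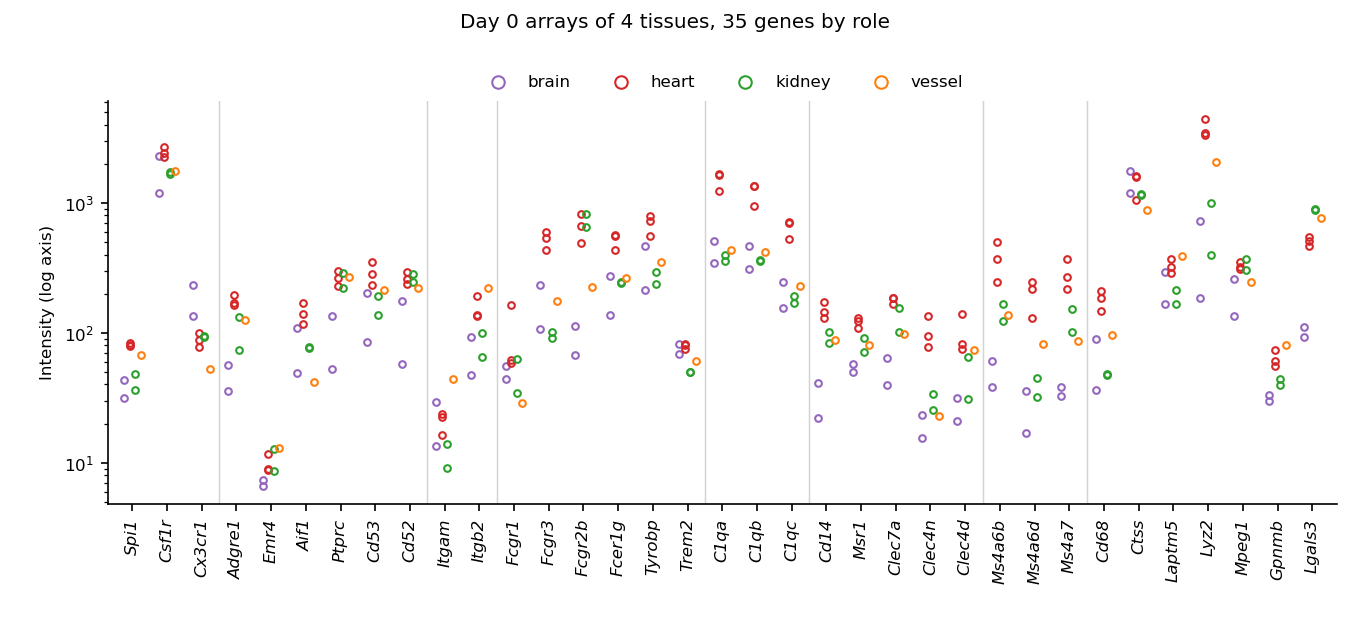
Intensity (log axis) of the 35 genes on the day 0 arrays of brain (2), heart (3), kidney (2) and vessel (1), 1 point per array, to be compared within a gene only, with genes ordered by role and grey lines between roles. Within a gene, heart points lie highest for Fcgr3, C1qa, C1qb, C1qc, Lyz2 and others, brain points for Cx3cr1, and kidney points for Lgals3.

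Other genes of the same pathways were counted in 6 lists, of which 62 genes were tested in heart. At day 1, 20 of the 62 rose and 1 fell, beside 4.86% of all tested genes called higher and 8.57% lower. These calls rest on the same hearts as those above and were not followed with single arrays left out. Over all tested genes, 405 were called in either direction without day 1 replicate 1, against 683 higher and 1203 lower with all hearts. Of 12 genes of the CSF1 axis and monocyte recruitment, 8 rose and none fell, led by Ccl2, the ligand that draws monocytes (3.05 ± 0.40), its receptor Ccr2 (2.18 ± 0.60) and the chemokine receptor Ccr1 (1.90 ± 0.41). Csf1, the ligand of the receptor encoded by Csf1r, rose by 0.72 ± 0.15. Of 10 signalling genes behind Fc and ITAM receptors, 4 rose and none fell, led by the kinase Syk (0.87 ± 0.18), the inhibitory receptor Pirb (0.78 ± 0.24) and the adaptor Lcp2 (0.69 ± 0.20). Of 13 Toll-like receptors and their partners, 4 rose, led by Tlr13 (1.25 ± 0.32), Tlr1 (0.86 ± 0.20) and the adaptor Myd88 (0.74 ± 0.17). Of 9 transcription factors of macrophages, 2 rose, Cebpb (0.94 ± 0.21) and Maf (0.52 ± 0.15). Of 11 lysosome and phagosome genes, 2 rose, the proteases Ctsc (0.80 ± 0.20) and Lgmn (0.68 ± 0.18), and Mitf, a transcription factor of lysosomal genes, fell (-0.51 ± 0.16). None of 7 other complement genes was called, with C5ar1, the receptor for C5a, nearest (0.78 ± 0.26, adjusted p = 0.065).

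At days 3 and 7 none of the 62 was called against day 0 (limma), with an unadjusted p under 0.05 for 15 and 5 of them, against 12% and 8.88% of all tested genes. Nearest were Lgmn at day 3 (0.92 ± 0.18, adjusted p = 0.075) and Maf at day 7 (0.53 ± 0.15, adjusted p = 0.40). Against day 1, 3 of the 62 genes fell by day 3, beside 1.47% of all tested genes. They were Ccl2 (-2.11 ± 0.40), Ccl7 (-1.35 ± 0.31) and Csf1 (-0.66 ± 0.15), all of the recruitment list. By day 7, 6 of the 62 fell against day 1, beside 2.12% of all tested genes. Of these, 5 were of the recruitment list, led by Ccl2 (-3.13 ± 0.40), Ccl7 (-2.10 ± 0.31) and Ccr1 (-1.59 ± 0.41). The other 1 was of the Toll-like receptor list, Myd88 (-0.72 ± 0.17). Of the 34 macrophage genes, only Msr1 was called lower at day 7 than at day 1, and its call held in 2 of 6 fits that left out an array. Means were lower at day 7 for both integrin chains (median -1.04), all 5 receptors for microbial and modified ligands (median -0.90), Ms4a6d (-1.08) and Lgals3 (-1.02). They were higher for all 3 C1q genes (median 0.27) and Ms4a7 (0.95), among others.

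In kidney none of 60 and in brain none of 49 of these genes was called at any day (limma), with an unadjusted p under 0.05 for 8, 5 and 8 in kidney at days 1, 3 and 7 and for 1 and 2 in brain at days 3 and 7. Among all tested genes these shares were 16.3%, 8.46% and 6.68% in kidney and 7.38% and 7.13% in brain. Nearest in kidney were C2, a complement protease, at day 1 (0.40 ± 0.08, adjusted p = 0.091), the phosphatase Inpp5d at day 3 (-0.27 ± 0.10, adjusted p = 0.54) and Tlr2 at day 7 (0.39 ± 0.09, adjusted p = 0.69). In brain it was the exchange factor Vav1 at both days (0.57 ± 0.13 and 0.46 ± 0.13, adjusted p = 0.66 and 0.67). Ccl2 (3.03 ± 0.56), Ccl12 (2.23 ± 0.50) and Ccl7 (1.66 ± 0.43) responded more in heart than in kidney at day 1, and no gene of the other 5 lists did. These were 3 of 63 pathway genes, beside 0.958% of all genes called higher in heart.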

How the data were processed

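RNA of 30 organ samples was hybridised to Affymetrix whole-genome mouse arrays, 1 sample per array. The deposited values are linear intensity values per probe set, made by the authors. The tool named in the submitters' processing notes is Affymetrix Expression Console, and its algorithm is not given in the sources used here. Of 45101 probe sets, 34945 carried 1 gene symbol in the platform annotation, 932 several and 9160 none, with 64 control probe sets left out. One probe set stood for each of 18193 genes, the one with the highest mean over all arrays. Values were taken as log2(intensity + 16). A gene entered the test where its value exceeded the array's 40th percentile in a number of arrays equal to the smallest group or more. Tissues were fitted separately by group means in limma 3.58.1 (R 4.3.3), and p-values were adjusted by Benjamini-Hochberg across the genes tested, at 0.05. Organs were compared in a joint fit of 26 arrays, and vessel without a test. Tables were made with Python 3.11.15, pandas 2.3.3 and numpy 2.4.6, and the fit was tested on simulated data.

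The p-values set a difference against the spread of arrays within groups, taken over all groups of the fit. Nothing in the labels names a batch. The joint fit took organs as independent, although the labels do not say which came from the same mouse. Named throughout were Cd68, Csf1r, Adgre1 and Ptprc, together with the 4 called members of largest change (for days and tissues, in each direction) or, where none was called, the 2 with the smallest p, the 4 with the largest difference in vessel, and other members by role. Of the pathway lists up to 3 called genes were named, or the 1 with the smallest p. The members and lists were chosen with earlier results of these data known. Alternatives were no filter, repeated quantile normalization, the mean over probe sets, 1 or 64 added before the log, trended and robust variances, the replicate number as a block, other samples in the fit and each array left out in turn. Same-numbered arrays did not all deviate together: the correlation of their deviations from group means was -0.33 to 0.15 in heart, -0.09 to 0.24 in kidney and -0.64 to 0.48 in brain, so the numbers were not used as pairs.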

Additional observations from a re-analysis of the deposited data

Results flagged for a closer look

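Msr1 responded differently in heart and kidney at day 1, by a difference of 0.64 (log2) that passed the test between the tissues. Its change was 0.49 in heart and -0.14 in kidney, where its 3 other probe sets changed by 0.07 to 0.28. The call held in 3 of 10 fits that left out an array and was lost with the mean of its probe sets.

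In 5 further cases every treated array of the day lay above all untreated arrays in one tissue and below all untreated arrays in the other. Lgals3 was one of these genes: its response was 2.25 higher in heart than in brain at day 3 and 1.68 higher at day 7, and 1.66 higher in kidney than in brain at day 3 and 1.89 higher at day 7. Trem2 differed by -0.45 at day 7 between kidney and brain, lower in kidney, while its second probe set changed by 0.01 in kidney and 0.20 in brain. These 5 differences were not tested, and brain and kidney had 2 arrays in each group. The share of all genes that meet the same rule was not counted, so the number of cases cannot be judged.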

How the results depend on the processing

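The number of macrophage genes called in heart at day 1 (18) was 9 with no filter, 8 with trended and robust variances, 10 with a replicate block, 7 with only the groups compared and 1 to 24 with an array left out. At day 3 in heart (0 called) it was 1 in the joint fit and 0 to 2 with an array left out, and at day 7 (0 called) it was 3 with only the groups compared. Between day 3 and day 1 (2 called) it was 1 with no filter, with 1 or 64 added before the log and with trended and robust variances, 0 with the mean of probe sets, the replicate block or only the groups compared, and 0 to 12 with an array left out. Between day 7 and day 1 (1 called) it was 0 with only the groups compared and 0 to 17 with an array left out. In kidney at day 1 (0 called) it was 1 with trended and robust variances. For heart minus kidney at day 1 (1 called) it was 0 with the mean of probe sets, with 1 added or with the replicate block, and 0 to 15 with an array left out. Untreated brain against kidney (10 called) gave 6 with 64 added and 5 to 12 with an array left out, and heart against kidney 27 with only the groups compared (16 called) and 10 to 16 with an array left out. The replicate block moved no other count by over 1.5 times, and the cause of these differences was not tested. In vessel the 3 counts moved by less than 1.5 times.

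For single genes, 856 values kept direction and side of the threshold, 74 were no longer past it, 3 were newly past it and 13 changed sign. Where an array was left out, kidney values ranged from -0.54 to 0.23 for Cd68 at day 3 (positive without day 3 replicate 1). At day 7 in kidney, Csf1r ranged from -0.062 to 0.11, Adgre1 from -0.38 to 1.495 and Ptprc from -0.23 to 1.11 (all negative without day 7 replicate 2), and Csf1r was -0.040 with the mean of probe sets. At day 3 in brain, Cd68 ranged from -0.16 to 0.87 and Adgre1 from -0.081 to 0.41 (negative without day 0 replicate 1), and Ptprc from -0.87 to 0.27 (positive without day 0 replicate 2). At day 7 in brain, Cd68 ranged from -0.24 to 0.80 and Csf1r from -0.12 to 0.81 (negative without day 0 replicate 1), Adgre1 from -0.28 to 0.21 (positive without day 0 replicate 2 and 0.01 without day 7 replicate 2) and Ptprc from -0.91 to 0.23 (positive without day 0 replicate 2). The cause was not tested. Groups of 2 or 3 arrays, and weak genes near background, limit what could be called.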
